A study of Homo sapiens with 4 samples.

Results

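To describe the H3K27ac landscape of the regulators that act late in B-cell development, the peaks at BCL6, BACH2, IRF4, IRF8 and PRDM1 were compared between REH and 697 cells. These 5 genes were chosen by name, and their positions were given in kb on hg19. Every peak that overlapped a gene body, or the 10 kb on either side of it, by at least 1 bp was taken, which gave 19 of 44626 REH peaks and 25 of 74504 697 peaks. REH is an established line of B-cell precursor leukemia with an ETV6/RUNX1 fusion, in which the wild type copy of ETV6 is deleted, and 697 is a line of the same disease without the fusion. Untreated cells of each line gave 1 H3K27ac ChIP library and 1 input library, so no difference between the lines has a replicate check and no test between them was possible. Each line is a single leukemia grown in culture, and its other genetic changes cannot be told apart from the fusion. After removal of duplicate tags, 65241657 ChIP tags remained in REH and 68911420 in 697. The 697 list was the larger, with 102 Mb under peaks against 67.9 Mb in REH, a ratio of 1.49. The B-cell identity of the lines was not checked here, because no marker gene was placed on hg19.

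H3K27ac marks active promoters and enhancers, and a broad or clustered pattern of peaks is known from genes with strong enhancer control. BCL6 and BACH2 encode transcriptional repressors that hold B cells before plasma cell differentiation, and both are also known from the pre-B-cell stage. IRF4 and IRF8 encode interferon regulatory factors that bind together with ETS factors, and both are known to take part in the step from large to small pre-B cells. PRDM1 encodes BLIMP1, the repressor that drives plasma cell differentiation and is itself held down by BCL6 and BACH2.

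The promoters of 4 of the genes, each of which had a peak at the 5′ end in both cell lines, are shown to compare their base composition. They are those whose start in RefSeq matched the length of the gene body used here. The sequences are from RefSeq on GRCh38.p14, each run 250 bases before to 50 bases after the annotated start, and their positions were not combined with the hg19 peaks. CG dinucleotides, the sites of DNA methylation, are in capitals. All sequences read 5′ to 3′ along the strand of the gene. They lie at chr3:187745419-187745718 on the minus strand for BCL6, at chr6:90296794-90297093 on the minus strand for BACH2, at chr6:391502-391801 on the plus strand for IRF4 and at chr6:106086086-106086385 on the plus strand for PRDM1.
BCL6: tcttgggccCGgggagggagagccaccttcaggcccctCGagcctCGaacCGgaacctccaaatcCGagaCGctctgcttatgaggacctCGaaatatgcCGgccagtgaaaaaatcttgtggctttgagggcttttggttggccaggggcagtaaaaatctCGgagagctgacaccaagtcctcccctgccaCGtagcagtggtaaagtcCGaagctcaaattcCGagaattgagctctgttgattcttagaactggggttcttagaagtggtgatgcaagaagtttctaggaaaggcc
BACH2: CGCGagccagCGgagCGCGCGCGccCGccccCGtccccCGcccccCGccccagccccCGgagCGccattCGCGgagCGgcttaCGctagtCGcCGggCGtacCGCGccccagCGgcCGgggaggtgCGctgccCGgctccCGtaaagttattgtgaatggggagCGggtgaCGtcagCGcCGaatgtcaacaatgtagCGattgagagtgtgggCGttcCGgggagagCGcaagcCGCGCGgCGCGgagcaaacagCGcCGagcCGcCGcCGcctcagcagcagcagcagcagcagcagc
IRF4: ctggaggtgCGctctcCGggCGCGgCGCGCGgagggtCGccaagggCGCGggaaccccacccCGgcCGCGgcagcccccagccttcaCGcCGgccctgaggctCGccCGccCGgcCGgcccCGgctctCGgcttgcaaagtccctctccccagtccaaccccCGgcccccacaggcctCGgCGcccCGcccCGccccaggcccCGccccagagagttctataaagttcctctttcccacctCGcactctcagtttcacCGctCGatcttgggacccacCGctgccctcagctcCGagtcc
PRDM1: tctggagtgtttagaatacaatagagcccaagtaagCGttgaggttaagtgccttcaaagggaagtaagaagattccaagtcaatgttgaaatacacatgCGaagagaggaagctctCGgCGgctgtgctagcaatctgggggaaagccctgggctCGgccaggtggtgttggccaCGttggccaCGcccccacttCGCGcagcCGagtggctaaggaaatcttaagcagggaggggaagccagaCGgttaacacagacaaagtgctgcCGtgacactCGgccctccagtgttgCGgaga

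The BACH2 and IRF4 promoters held 45 and 32 CG dinucleotides in 300 bases, and the BCL6 and PRDM1 promoters 12 and 14, against a median of 14 over 35116 RefSeq promoters. The RUNX core TGTGGT, searched on both strands, was in none of the 4 and in 13.1% of all promoters. The core AANNGAAA of the IRF site was also in none of them and in 22.8% of all promoters. The core TGCTGA of the BACH and MAF site was found in the BACH2 promoter alone of the 4, at base 275 on the opposite strand, where it ran into a CAG repeat, and in 17.3% of all promoters. These matches describe letters only and do not show binding. IRF8 is named without a sequence, because neither of its promoters in the RefSeq table matched the length of the gene body used here. Promoters at other RefSeq starts of these genes, not shown, held TGTGGT at BCL6 and IRF8, AANNGAAA at IRF8 and TGCTGA at PRDM1.

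REH and 697 had peaks at 5 of the 5 loci, and the clearest differences lay at BACH2 and IRF8, in opposite directions. Peaks covered 18709 bp of the BACH2 window in REH and 7974 bp in 697, and 1875 bp of the IRF8 window in REH and 18702 bp in 697. A locus was called different when the covered bases differed at least 2 times or only 1 line had a peak. By this rule 2 of the 5 loci were called, BACH2 as higher in REH and IRF8 as higher in 697. Such calls were frequent across the genome. Of 29915 windows of 45 kb with a peak in either line, 42.6% were called higher in 697 and 22.1% higher in REH, and of 6164 windows of 391 kb, the width of the BACH2 window, 31.4% and 20.3%. These calls include windows with peaks in 1 line only. At 45 kb they were 7273 with 697 peaks only and 4543 with REH peaks only, and at 391 kb 469 and 677. The windows were also placed without regard to genes, whereas all 5 loci are genes with peaks in both lines. Against windows of this kind the count of called loci is no higher than in the genome at large, and what follows describes where the peaks lie. At an FDR of 5%, 18 peaks of the 5 loci were kept in REH and 19 in 697, where 87.2% and 64.6% of the whole lists were. At a −log10(p) of at least 10, BACH2, IRF4 and PRDM1 had peaks in REH only, the BCL6 ratio of REH over 697 rose to 2.95, and IRF8 had no peak in either line. How much of each whole list passes this last filter was not counted, so these changes have no background beside them.

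**Figure D1:**
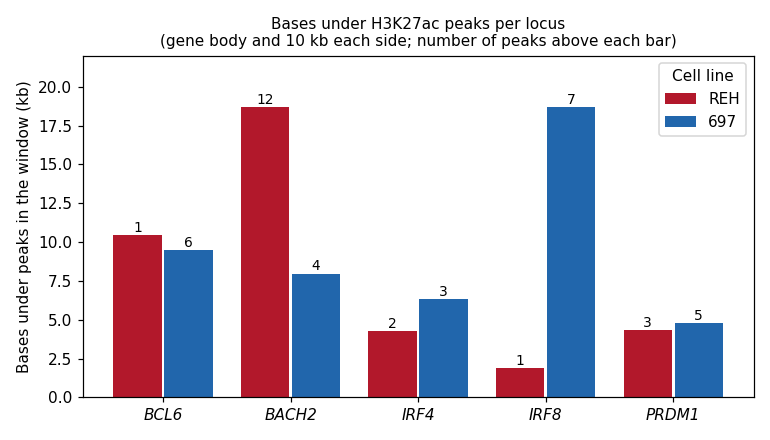
Bases under H3K27ac peaks (kb, y axis) in the window of each gene (x axis) in REH and 697, 1 library each and so without error bars, with the number of peaks above each bar. BACH2 is highest in REH with 12 peaks over 18709 bp, and IRF8 is highest in 697 with 7 peaks over 18702 bp.

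A peak lay at the 5′ end of 4 genes in REH and of 5 in 697, where the 5′ end is known to the nearest kb and a peak within 1 kb of it was counted. The exception was IRF8 in REH. Away from the 5′ end, the lines differed in where their peaks lay. REH had 14 peaks inside gene bodies, 1 upstream and 0 downstream, and 697 had 10 inside gene bodies, 5 upstream and 5 downstream. BACH2, by far the longest gene, held 11 of the REH gene-body peaks, and at the other 4 loci the order was reversed, with 3 in REH and 8 in 697.

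**Figure D2:**
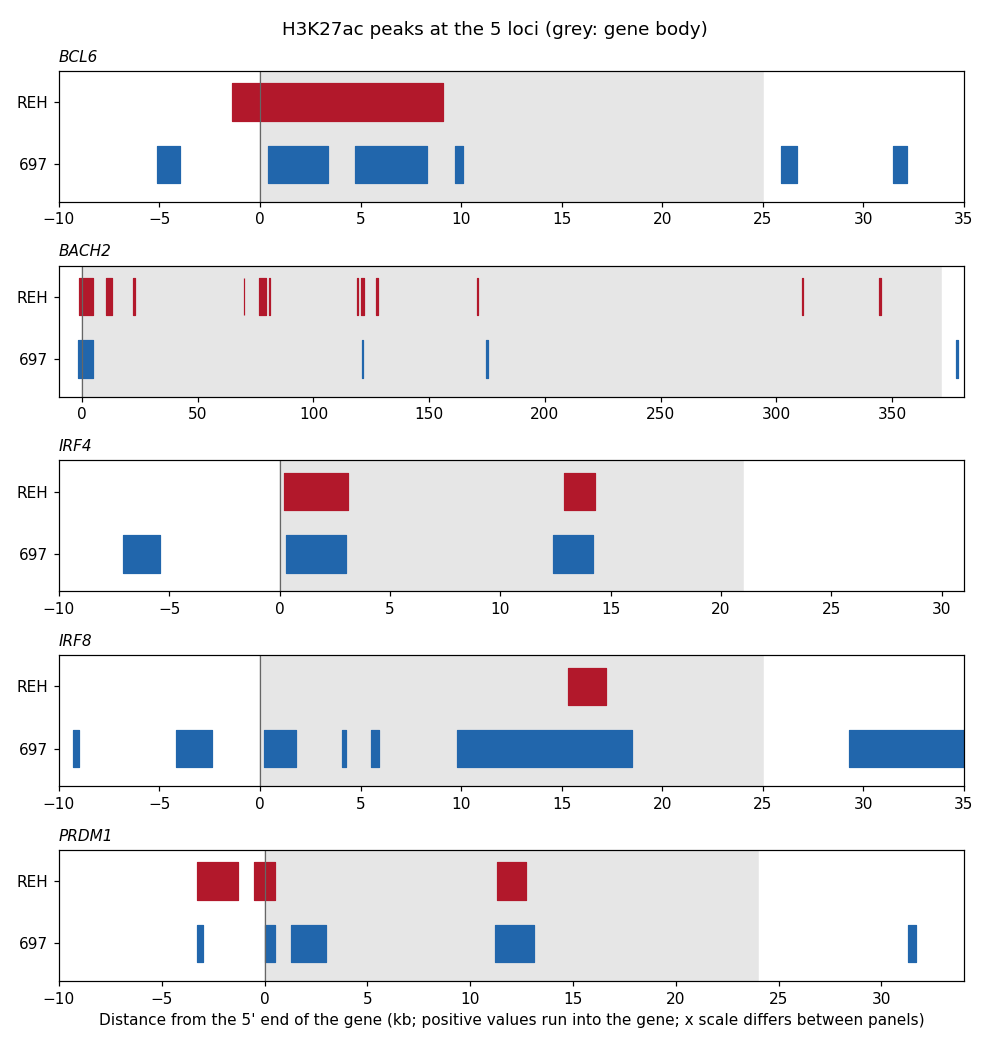
Position of every H3K27ac peak at the 5 loci, in kb from the 5′ end of the gene (x axis, positive into the gene, its scale set for each panel), with REH in the upper and 697 in the lower row and the gene body in grey. REH has 1 long BCL6 peak, 12 peaks along BACH2 and 1 IRF8 peak, and 697 has 6, 4 and 7 at these genes.

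BCL6, a repressor that holds B cells before plasma cell differentiation, lies on the minus strand of chromosome 3 (hg19, 187439 to 187464 kb). In REH, 1 peak of 10437 bp, from 187454944 to 187465380, ran from 1.4 kb upstream of the 5′ end to 9.1 kb inside the gene. It ranked 241 by length among all REH peaks, within the longest 0.54%. In 697 the same stretch held separate peaks. A peak of 2920 bp from 187460634 to 187463553 lay at the 5′ end, and a peak of 3532 bp from 187455744 to 187459275, the longest 697 peak at BCL6, lay 4.7 kb inside the gene. Both 697 peaks were wholly inside the REH domain. The other 4 697 peaks had no REH peak over them. The 3 longest of these were 1089 bp from 187467997 to 187469085, upstream of the gene, and 741 bp from 187437310 to 187438050 and 736 bp from 187431754 to 187432489, downstream of it.

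In total, peaks covered 23.2% of the BCL6 window in REH against 21.0% in 697. The ratio was 1.10, so the locus was not called. The REH value was above that of 96.6%, and the 697 value above that of 90.9%, of the 45 kb windows with a peak in either line. Of the REH domain, 61.8% also lay under 697 peaks. BCL6 thus had a similar number of bases under peaks in both lines, in 1 block in REH and in 6 pieces in 697. Only 2 of these pieces lay in the REH block. Of the bases under a peak of either line, 48.0% were under peaks of both. Joining peaks within 1000 bp left 6 pieces in 697.

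BACH2, the repressor that delays plasma cell differentiation, lies on the minus strand of chromosome 6 (hg19, 90636 to 91007 kb) and is the longest of the 5 genes. Both lines had a long peak at its 5′ end. In REH it was 5831 bp, from 91002434 to 91008264, and in 697 it was 6330 bp, from 91002242 to 91008571. These were the longest peaks of the locus in each line, and the REH peak lay wholly inside the 697 peak.

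Inside the gene the lines parted. Apart from the peak at the 5′ end, REH had 11 peaks in the BACH2 gene body over 12878 bp and 697 had 2 over 1018 bp. The ratio was 12.7. REH had 10 peaks at BACH2 that no 697 peak touched. The longest of these was 2886 bp, from 90993872 to 90996757, 10.2 kb inside the gene. The next was 2861 bp, from 90927564 to 90930424, 76.6 kb inside the gene, and the third was 960 bp, from 90879189 to 90880148, 126.9 kb inside. The REH peaks gathered in the first 127.8 kb of the gene, where 9 of them lay, and the other 3 began 170.5, 311.1 and 344.5 kb from the 5′ end.

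In 697, the only peak shared inside the gene was 185 bp long, from 90885688 to 90885872, within a REH peak of 1481 bp. The 697 peaks without a REH peak were 833 bp, from 90831678 to 90832510, inside the gene, and 626 bp, from 90628553 to 90629178, downstream of it. The 697 peak of 833 bp and the REH peak of 669 bp at 344.5 kb missed an FDR of 5%. Over the whole BACH2 window, peaks covered 4.78% in REH and 2.04% in 697, where the median window of 391 kb had 1.60% and 2.09%. The ratio of covered bases was 2.35 in favour of REH, against a genome in which 697 had more. The call was lost in wider windows, where the ratio was 1.58 with 50 kb on each side, 1.33 with 100 kb and 1.46 with 200 kb, and at a required ratio of 3.

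**Figure D3:**
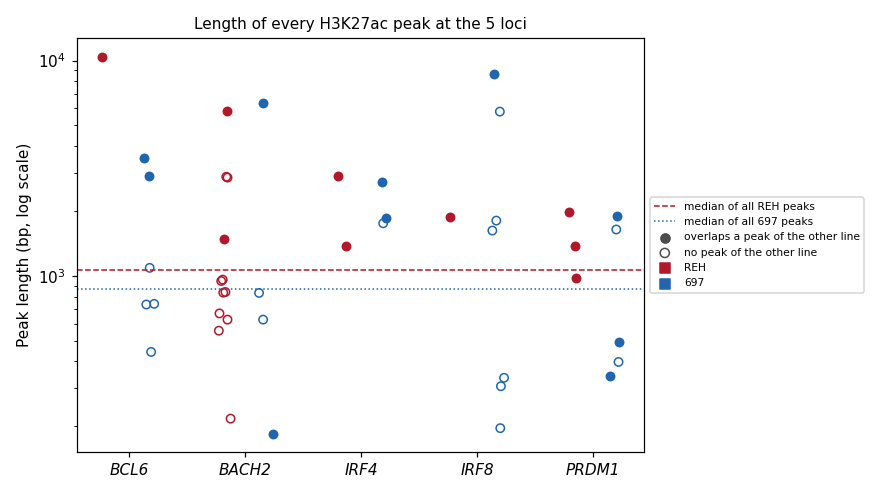
Length of every peak at the 5 loci (bp, log scale, y axis) by gene (x axis) and cell line, filled where a peak of the other line overlaps it and open where none does, with dashed and dotted lines at the median of all REH (1060 bp) and all 697 peaks (871 bp). The open REH points are all at BACH2, and the longest points are the BCL6 peak of 10437 bp in REH and the IRF8 peak of 8710 bp in 697.

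IRF4, which at high levels drives plasma cell differentiation, lies on the plus strand of chromosome 6 (hg19, 391 to 412 kb). Its peaks were the most alike in the 2 lines. At the 5′ end, REH had a peak of 2902 bp from 391247 to 394148 and 697 a peak of 2730 bp from 391262 to 393991. Further inside the gene, REH had a peak of 1371 bp from 403882 to 405252 and 697 a peak of 1855 bp from 403360 to 405214. Both pairs overlapped. The 1 other peak was in 697, of 1754 bp from 383874 to 385627 and 5.4 kb upstream of the 5′ end, and it missed an FDR of 5%. Peaks covered 4273 bp in REH and 6339 bp in 697, of which 4063 bp were under peaks of both lines, 62.0% of the bases under a peak of either line and the highest share of the 5 loci. The ratio of REH over 697 was 0.674, and the locus was not called. With 50 kb on each side it was 0.321, which passed the rule for a call. Among windows of the same width, 43.2% of those of 41 kb were called higher in 697 and 22.2% higher in REH.

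IRF8, which is expressed in B cells, dendritic cells and monocytes, lies on the plus strand of chromosome 16 (hg19, 85932 to 85957 kb). REH had 1 peak in its window, of 1875 bp from 85947289 to 85949163, and it lay 15.3 kb inside the gene. This was the nearest REH peak to the 5′ end of IRF8, and with 50 kb on each side it was still the only one. In 697 there were 7 peaks. A peak of 1623 bp from 85932168 to 85933790 lay at the 5′ end. The longest, of 8710 bp from 85941792 to 85950501, took in the whole REH peak, which made up 21.5% of it, and ranked 487 by length among all 697 peaks, within the longest 0.654%.

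Of the 7 697 peaks at IRF8, 6 had no REH peak over them. The longest of these was 5795 bp, from 85961277 to 85967071, downstream of the gene, followed by 1806 bp from 85927772 to 85929577, upstream of it, and by the peak at the 5′ end. The other 3 were 196 to 336 bp long. Peaks covered 41.6% of the window in 697, more than in 98.1% of the 45 kb windows with a peak in either line, and 4.17% in REH. The 697 peaks covered 9.97 times as many bases as the REH peak, where the whole 697 list covered 1.49 times as many. The call was the same in every window and with every peak filter tried except −log10(p) of at least 10, at which no IRF8 peak of either line remained.

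PRDM1, the plasma cell gene that BCL6 and BACH2 are known to repress, lies on the plus strand of chromosome 6 (hg19, 106534 to 106558 kb). It had peaks in both lines, 3 in REH and 5 in 697. At the 5′ end, REH had a peak of 975 bp from 106533495 to 106534469 and 697 a peak of 494 bp from 106533968 to 106534461, inside the REH peak. The longest REH peak, of 1971 bp from 106530748 to 106532718, lay upstream and overlapped a 697 peak of 342 bp. The longest 697 peak, of 1905 bp from 106545203 to 106547107, lay 11.2 kb inside the gene and took in the REH peak of 1383 bp from 106545296 to 106546678. RefSeq also lists a PRDM1 start 11.0 kb from the gene end, against 23.6 kb for the promoter shown above. Whether these peaks lie at that inner start was not tested, because it was not placed on hg19.

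The 697 peaks of PRDM1 without a REH peak were 1642 bp, from 106535313 to 106536954, just inside the gene, and 398 bp, from 106565275 to 106565672, downstream of it. All 3 REH peaks passed an FDR of 5%, but only 2 of the 5 697 peaks did, and the 697 peak at the 5′ end was among those that did not. The q-values hardly correlated between the lines at paired peaks (Spearman correlation 0.027), so they serve here as a filter only. Peaks covered 4329 bp of the window in REH. They covered 4781 bp in 697, which put the ratio at 0.905, and the locus was not called. Of the 44 kb windows, 42.8% were called higher in 697 and 22.1% higher in REH. The direction depended on the choices made, since REH had more at an FDR of 5%, with a ratio of 1.22, and 697 had more in the gene body alone, with a ratio of 0.462 that passed the rule for a call.

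**Figure D4:**
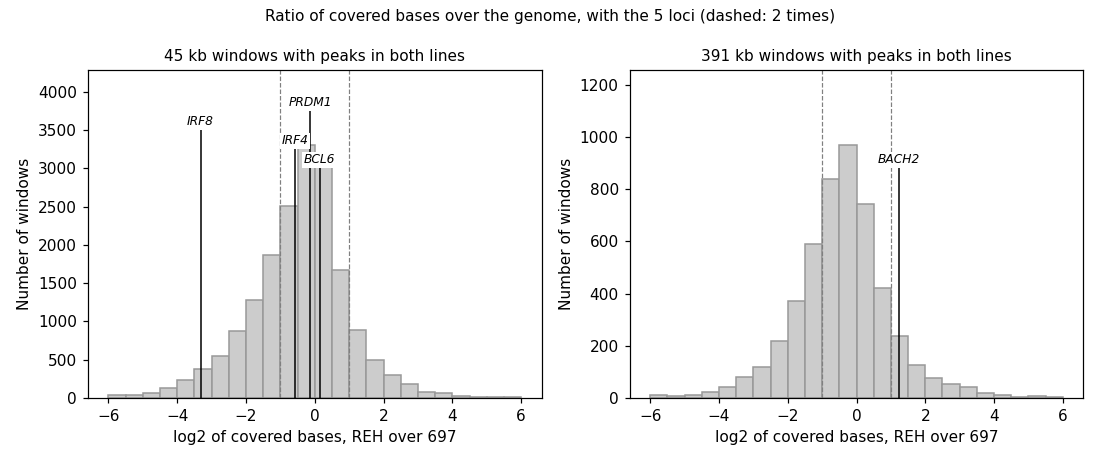
Number of windows (y axis) by the log2 ratio of covered bases, REH over 697 (x axis), for 45 kb windows (left, with BCL6, IRF4, IRF8 and PRDM1 marked, whose own windows are 41 to 45 kb) and 391 kb windows (right, with BACH2 marked), for windows with peaks in both lines. IRF8 lies at -3.32 and BACH2 at 1.23, outside the dashed lines at 2 times, and the other 3 genes lie between -0.57 and 0.14.

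Across the 5 loci, 9 of the 19 REH peaks overlapped a 697 peak, which is 47.4% (95% Clopper-Pearson interval 24.4 to 71.1, counting error only), where 64.1% of all REH peaks did. The REH peaks without a 697 peak were all at BACH2, and at the other 4 loci 7 of 7 REH peaks overlapped a 697 peak. In 697 the overlap with REH was 10 of 25 peaks, or 40.0% (21.1 to 61.3), and 38.9% over the whole list. The 15 697 peaks without a REH peak were spread over the 5 loci, with 6 at IRF8, 4 at BCL6, 2 at BACH2, 2 at PRDM1 and 1 at IRF4. A peak in 1 line does not show whether fewer cells carried the mark in the other or each cell carried less.

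Regions up to 200 kb from each gene were then examined, a choice made after the peaks of the genes had been seen. They hold other genes, to which the peaks may belong and which were not placed here. No background of the same width was counted for these regions, and the whole 697 list covered 1.49 times as many bases as the REH list. Around IRF8 the difference was wider than the gene. Between 10 and 200 kb upstream, 697 had 23 peaks over 29042 bp and REH 4 peaks over 4911 bp, and downstream 697 had 13 peaks over 20057 bp and REH 3 over 2012 bp. Upstream of IRF4, 697 had 41 peaks over 52218 bp and REH 12 over 15675 bp, although the peaks of the gene itself were alike. Upstream of PRDM1, 697 had 10 peaks over 14503 bp and REH 4 over 2584 bp, whereas downstream 697 had 3 over 4720 bp and REH 4 over 4141 bp.

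Upstream of BACH2, by contrast, the lines had similar amounts, with 11 peaks over 22959 bp in REH and 13 over 21939 bp in 697. Downstream of BACH2, REH had 4 peaks over 8275 bp and 697 had 3 over 4290 bp. The longest REH peak upstream of BACH2 was 6329 bp, from 91083495 to 91089823. The longest 697 peak upstream of it was 5002 bp, from 91083050 to 91088051, and they overlapped each other. The REH peak lay 76.5 kb from the 5′ end of the gene. In the BACH2 gene body alone, the ratio of REH over 697 was 3.02, above that of the wider windows. Upstream of BCL6, REH had 8 peaks over 8013 bp and 697 had 15 over 10903 bp, of which 4 in each line overlapped a peak of the other. None was longer than 1838 bp.

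**Figure D5:**
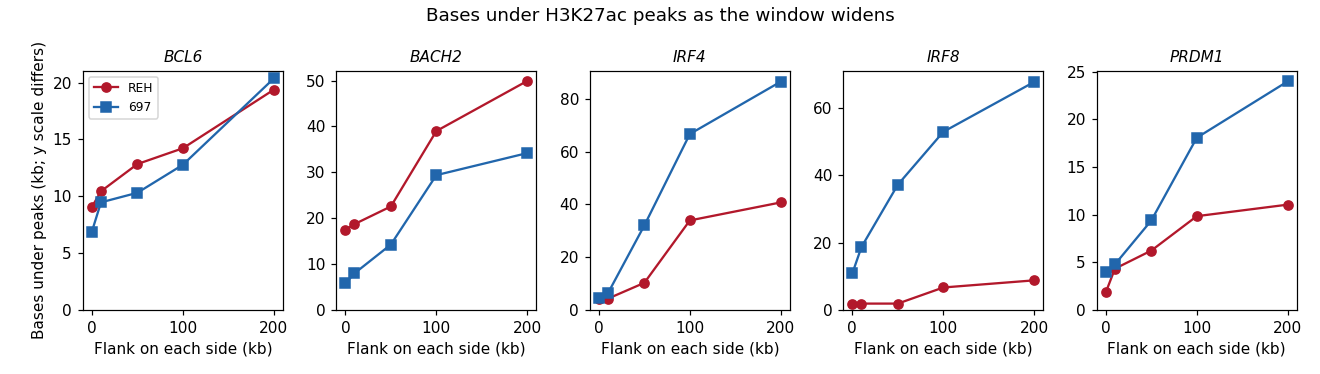
Bases under H3K27ac peaks (kb, y axis, its scale set for each panel) in the gene body with 0, 10, 50, 100 and 200 kb added on each side (x axis), for REH (circles) and 697 (squares). IRF8 keeps a wide gap, with 67872 bp in 697 and 8798 bp in REH at 200 kb, IRF4 opens one only outside the gene, and the BCL6 lines stay close, with 19374 bp in REH and 20364 bp in 697 at 200 kb.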

How the data were processed

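H3K27ac ChIP-seq was performed by the authors on 1 library each of REH and 697, each with its own input. The submitters' processing notes name Bowtie2, MACS2 and hg19, and the file headers name MACS 2.1.0.20150731 in broad mode against input with a broad q-value cutoff of 0.1, while the study's methods name an earlier MACS version. For each peak the authors deposited its position, the mean pileup signal, the fold enrichment as a linear ratio, and, as −log10, a q-value and a p-value, but no tags per peak. Only positions and lengths were compared between the lines. Over 24932 peaks that pair with 1 peak of the other line, the Spearman correlation was 0.473 for length but 0.025 for pileup and 0.027 for −log10(q), a description over peaks that share their libraries, so pileup and fold were not used further, and p-values and q-values only as filters.

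Gene bodies on hg19 were given in kb, strands came from RefSeq, and covered bases are those of a window under at least 1 peak. The background was every consecutive window of the same width with a peak in either line. Named peaks were the longest of each line, those at the 5′ end and up to 3 longest of 1 line only. Members, lists and named items were chosen with earlier results of these data known. Promoters were matched for 5 of 5 genes and printed for 4, where the distance from start to gene end came within 2 kb of the gene body. No hg19 annotation was used here, so a further list of B-cell stage genes was not analysed here. Scripts were tested on simulated data with scipy 1.17.1 and pandas 2.3.3 in Python 3.11.15.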

Additional observations from a re-analysis of the deposited data

How the results depend on the processing

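With 1 library per line no result has a replicate check, and no paired analysis was possible because each group holds 1 sample. The number of called loci was 2 as reported, 4 at a −log10(p) of at least 10, 1 with 100 kb on each side and 1 at a required ratio of 3, and it stayed between 2 and 3 under the other alternatives. IRF8 was called higher in 697 in 11 of 12 alternatives, and BACH2 higher in REH in 8 of 12. At a −log10(p) of at least 10, the BCL6 ratio of covered bases, REH over 697, was 2.95, BACH2, IRF4 and PRDM1 had peaks in REH only and IRF8 in neither line, so these have no ratio. The share of each whole list that passes this filter was not counted. A ratio was listed as moved when it left a Wilson interval set on the covered bases of the reported setting. That interval treats neighbouring bases as independent, so it is too narrow and serves only to pick the ratios listed. The other ratios that moved are REH over 697 as well. Without flanks they were 1.31 for BCL6, 3.02 for BACH2, 0.932 for IRF4, 0.173 for IRF8 and 0.462 for PRDM1. With 50 kb they were 1.25, 1.58, 0.321, 0.0503 and 0.663 in the same order, and with 200 kb, added after the data were seen, 0.951, 1.46, 0.471, 0.130 and 0.461. With 100 kb they were 1.33 for BACH2, 0.509 for IRF4, 0.126 for IRF8 and 0.544 for PRDM1. Divided by the ratio over all peaks, they were 1.65 for BCL6, 3.51 for BACH2, 1.01 for IRF4, 0.150 for IRF8 and 1.35 for PRDM1, so IRF4 and PRDM1, neither of them called, changed side. At an FDR of 5% they were 2.53 for BACH2, 0.932 for IRF4 and 1.22 for PRDM1. With equal numbers of the longest peaks they were 1.16 for BCL6, 2.61 for BACH2 and 1.22 for PRDM1, among peaks of at least 1000 bp 1.38, 2.06 and 0.946, and with peaks merged 2.47 for BACH2. The cause of these changes was not tested, beyond the bases that each window or filter adds or removes. Over the 5 loci together, the alternatives gave 17 to 19 peaks in REH and 19 to 25 in 697. The share of REH peaks overlapped by a 697 peak was 47.4% as reported, 38.9% at an FDR of 5% and 31.6% when the peak midpoint had to lie inside the other peak, and the share of 697 peaks ranged from 36.0% to 42.1%. These shares lay within the counting intervals of the reported ones. The lists give a mean pileup but no tag count per peak, so no counting interval was set on a single peak.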
